A study of Mus musculus with 3 samples.

Results

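Infiltrating macrophages that express arginase-1 (Arg1) made up 176 of 33688 kept cells of injured and uninjured mouse brain. A cell was counted as Arg1-positive when it held at least 3 Arg1 transcripts, read as unique molecular identifiers (UMIs, 1 per captured transcript), and at most 5 UMIs in all of the microglia genes P2ry12, Tmem119, Siglech and Gpr34. The comparison cells held fewer than 3 Arg1 UMIs, at least 5 UMIs of the monocyte genes Plac8, Ccr2, Ms4a4c, Ly6c2 and F10, and the same microglia limit, and there were 158 of them. Cells were kept from 500 UMIs and 300 genes upward, with at most 20% mitochondrial UMIs. The cells were chosen by their Arg1, microglia-gene and monocyte-gene UMIs, so the values of these genes are a description only, and so is the contrast with the comparison cells, which the same genes define.

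Single-cell RNA was counted in 3 libraries of left perilesional brain from male C57BL/6 mice aged 6 to 8 weeks, prepared with a 10x Chromium 3' kit. The sham library is the control, with no treatment named in its labels. After traumatic brain injury (TBI), mice of the TBI+PBS library received phosphate-buffered saline (PBS, KGL2206-500) and those of the TBI+IL-25 library interleukin-25 (IL-25, Ab283480), each for 3 days. The IL-25 dose was 1 µg per mouse, first given within 30 minutes of the injury and then daily. The number of animals behind a library is not given, and each group is 1 library, so every difference below compares libraries and not conditions and has no replicate check. Intervals are 95% intervals and cover counting error only.

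Arginase-1 splits L-arginine into ornithine and urea and so draws arginine away from nitric oxide synthesis, while ornithine feeds the synthesis of polyamines and proline. In macrophages the gene is a classical target of the type 2 cytokines interleukin-4 and interleukin-13, and it is also expressed by monocyte-derived macrophages of wounds and of injured brain. IL-25 is a cytokine that activates type 2 innate lymphoid cells, a source of interleukin-13. Microglia, the resident macrophages of the brain, are told from infiltrating cells by genes such as P2ry12 and Tmem119.

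The libraries held between 39536447 and 61372408 UMIs in 8939 to 14222 barcodes, of which 8921 were kept in the sham library, 10600 in TBI+PBS against 14167 in TBI+IL-25. The TBI+IL-25 library stood apart: ribosomal RNA (Rn18s-rs5) in its Arg1-positive cells was at 8711 UMIs per 1000000 (CPM) against 600 CPM in TBI+PBS, a ratio of 14.5 (13.4 to 15.7), and in the comparison cells the ratio was 18.3. Its file header also names another Cell Ranger version (7.2.0) than those of sham and TBI+PBS (7.1.0). Between 51 and 66 barcodes of each library also occurred in another library, and none of these belonged to an Arg1-positive cell. A doublet score over 0.2 (Scrublet) was found in 5 of the 137 Arg1-positive cells of TBI+PBS and 0 of the 39 of TBI+IL-25.

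Arg1-positive cells appeared in both injured libraries and were far fewer in TBI+IL-25 than in TBI+PBS. No sham cell was Arg1-positive: 0 of 8921 cells, with an exact binomial interval up to 0.0413%, and 3 cells would be 0.0336%. The share was 1.29% of kept cells in TBI+PBS (137 cells, exact binomial interval 1.09% to 1.53%) and 0.275% in TBI+IL-25 (39 cells, 0.196% to 0.376%). With 3 cells in place of the sham 0, these shares were 38.4-fold and 8.19-fold higher.

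Between the injured libraries the share in TBI+IL-25 was 0.213 of that in TBI+PBS (interval 0.145 to 0.306). Comparison cells were also fewer in TBI+IL-25, at 57 against 91 cells and a ratio of shares of 0.469 (0.331 to 0.660). Among the cells of both gates the Arg1-positive cells were 60.1% in TBI+PBS (53.4% to 66.5%) and 40.6% in TBI+IL-25 (30.7% to 51.1%), a ratio of 0.676 (0.461 to 0.971). When every cell was first thinned to 2000 UMIs, which left out 1562 and 2921 shallower cells, the shares were 1.16% and 0.267%. Among cells with fewer than 3 UMIs of astrocyte, T cell, B cell, oligodendrocyte and endothelial markers, which are a smaller denominator, the shares were 2.607% and 0.8372% and their ratio was 0.3211 (0.204 to 0.494).

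**Figure D1:**
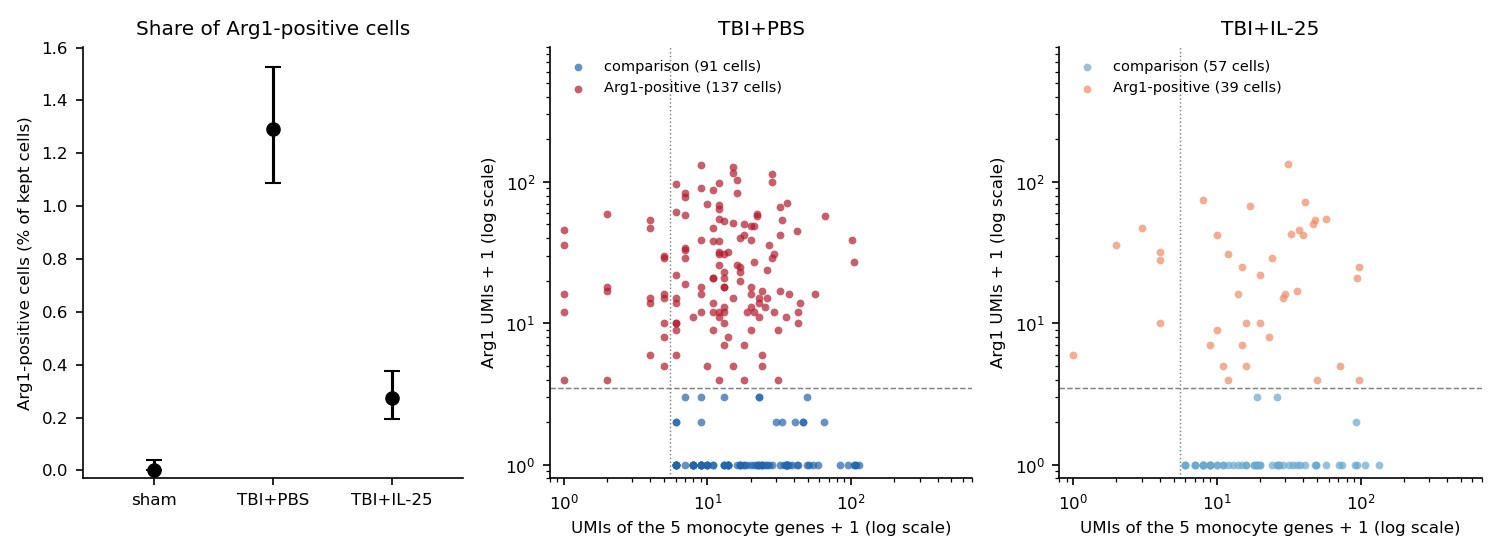
Left, Arg1-positive cells as a percent of kept cells in each library, with exact binomial 95% intervals: the sham point is at 0%, TBI+PBS at 1.29% and TBI+IL-25 at 0.275%. Middle and right, 1 point per cell of either gate, with UMIs of the 5 monocyte genes on the x axis and Arg1 UMIs on the y axis (both plus 1, log scales); the dashed and dotted lines mark the limits of 3 Arg1 and 5 monocyte-gene UMIs, and most Arg1-positive cells lie to the right of the dotted line.

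Arg1 itself varied widely between the chosen cells. In TBI+PBS they held from 3 to 131 Arg1 UMIs with a median of 20, and in TBI+IL-25 from 3 to 133 with a median of 21. Summed over the cells, Arg1 stood at 2843 CPM in TBI+PBS and 4076 CPM in TBI+IL-25. The range was about as wide over 39 cells as over 137.

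Few cells lay near the threshold. Within the microglia limit, 8 TBI+PBS cells held 2 Arg1 UMIs, 5 held 3 and 4 held 4, and in TBI+IL-25 these numbers were 6, 3 and 3. At the microglia limit, 3 TBI+PBS cells held 5 UMIs of the 4 genes and 2 cells beyond it held 6, with 0 such cells in TBI+IL-25. Arg1-positive cells carried 4280 of the 4663 Arg1 UMIs of the TBI+PBS library (91.8%) and 1095 of the 1140 of the TBI+IL-25 library (96.1%). Cells with at least 10 UMIs of the 4 microglia genes had Arg1 at 9.82 CPM in TBI+PBS, at 0.404 CPM in TBI+IL-25 and at 0.365 CPM in the sham library. Astrocyte-gated cells held at least 20 UMIs of the astrocyte markers, at most 5 of the microglia genes and 0 of the monocyte genes. They should lack Arg1, which was there at 0.884 CPM in TBI+PBS and 0.387 CPM in TBI+IL-25. An Arg1 UMI was present in 0.440% and 0.147% of them. Their median depth of 4534 and 3354 UMIs was lower than the 10108 and 6809 UMIs of the Arg1-positive cells.

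The monocyte genes of the comparison gate were not required of the Arg1-positive cells, and most of these cells held them. At least 5 UMIs of the 5 genes were found in 116 of 137 Arg1-positive cells in TBI+PBS and 33 of 39 in TBI+IL-25. Ccr2, the receptor by which monocytes follow Ccl2, was at 474 and 450 CPM. Plac8 differed most between the libraries, at 286 CPM in TBI+PBS and 2829 CPM in TBI+IL-25, and in the comparison cells it stood at 1136 and 4672 CPM.

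The marker lists bear on the label of infiltrating macrophages. All 12 macrophage markers were detected, at 24246 CPM in TBI+PBS and 22142 CPM in TBI+IL-25, with at least 3 UMIs in every one of the 137 and 39 cells. Lyz2, which encodes lysozyme, reached 10211 and 8681 CPM. Over all kept cells the macrophage list summed to 9385 and 9133 CPM, with at least 3 UMIs in 57% and 47.2% of them. It therefore does not mark these cells alone. All 12 monocyte markers were detected too, at 10591 and 13840 CPM, beside 880 and 671 CPM over all kept cells. The comparison cells held 8227 and 8214 CPM of these. Against them 1 of the 12 was higher and 3 were lower in both libraries.

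Of 8 microglia markers outside the rule, 7 were detected in each library, summing to 696 CPM in TBI+PBS and 305 CPM in TBI+IL-25, and Slc2a5 was at 0. At least 3 of these UMIs were found in 120 of 137 and 12 of 39 Arg1-positive cells, against 60 of 91 and 15 of 57 comparison cells. Over all kept cells these markers summed to 11265 and 8739 CPM, with at least 3 UMIs in 79.1% and 60.8% of them. Among 9 markers of border-associated macrophages, which line the meninges and vessels, Lyve1 was at 0 in both libraries and Cd163 and Folr2 were at 0 in TBI+IL-25. The same list summed to 2752 CPM in TBI+PBS and 603 CPM in TBI+IL-25, of which Pf4 gave 2138 and 298 CPM. At least 3 UMIs of it were found in 105 of 137 and 16 of 39 cells. Over all kept cells it summed to 123 and 12.35 CPM, with at least 3 UMIs in 1.98% and 0.353% of them. In the comparison cells this list was lower, at 411 CPM in TBI+PBS and 316 CPM in TBI+IL-25. There at least 3 UMIs of it were found in 25 of 91 and 11 of 57 cells. Astrocyte markers, all 10 of which were detected, summed to 1325 and 786 CPM with at least 3 UMIs in 52 of 137 and 7 of 39 cells. In the comparison cells they summed to 2220 and 1165 CPM, in 29 of 91 and 11 of 57 cells. The part of these markers in the results below was not tested. All 7 mast cell and basophil markers were at 0. T cell markers held 46 UMIs over the 137 cells of TBI+PBS, 45 of them in 1 cell, and 1 UMI over the 39 cells of TBI+IL-25.

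The comparison cells were a mixture. At least 3 UMIs of a marker list were found for T cells in 10 of 91 and 8 of 57 comparison cells (TBI+PBS and TBI+IL-25), for natural killer cells in 11 and 6, for B cells in 14 and 7, for dendritic cells in 26 and 5 and for neutrophils in 10 and 7. In the Arg1-positive cells these numbers were 1 and 0, 1 and 0, 0 and 0, 4 and 1, and 23 and 3. Over all kept cells the shares for T cells were 0.679% and 0.833% and for natural killer cells 0.3585% and 0.381%. For neutrophils they were 0.481% and 0.438%, for B cells 8.27% and 4.53% and for dendritic cells 13.9% and 5.06%. The B cell and dendritic cell lists therefore do not mark those cells alone. In the comparison cells their shares were 15.4% and 12.3%, and 28.6% and 8.77%. Neutrophil markers summed to 7692 CPM in the comparison cells of TBI+IL-25 and to 89.3 to 148 CPM in the other groups of cells. Each ratio below was therefore also taken without cells of at least 3 such UMIs, an alternative added after these values were seen, which left 109 and 35 Arg1-positive and 40 and 31 comparison cells. That value is printed where it differs from the first by more than 1.5 times or no longer meets the 2-fold limit.

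Against the comparison cells, the Arg1-positive cells held more transcripts of several chemokine, wound matrix, lipid and iron genes, of the cathepsins Ctsl and Ctsd, and fewer of 6 MHC class II genes, whose products present antigen to T cells. A gene was counted as higher or lower when its summed level differed at least 2-fold in the same direction in both injured libraries, with both intervals clear of 1. Of 1534 genes with at least 50 UMIs in each library, 53 (3.46%) were higher and 37 (2.41%) were lower. In TBI+PBS alone 215 (3.76%) of 5716 genes were higher and 311 (5.44%) lower, and in TBI+IL-25 alone 142 (9.22%) of 1540 were higher and 83 (5.39%) lower. Without the cells that held lymphocyte, neutrophil or dendritic cell markers 1136 genes could be measured, of which 23 (2.02%) were higher and 18 (1.58%) lower. Of 49 higher genes still measured 21 stayed higher, and of 22 lower genes 15 stayed lower. No test stands behind these counts, since cells are not replicates.

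**Figure D2:**
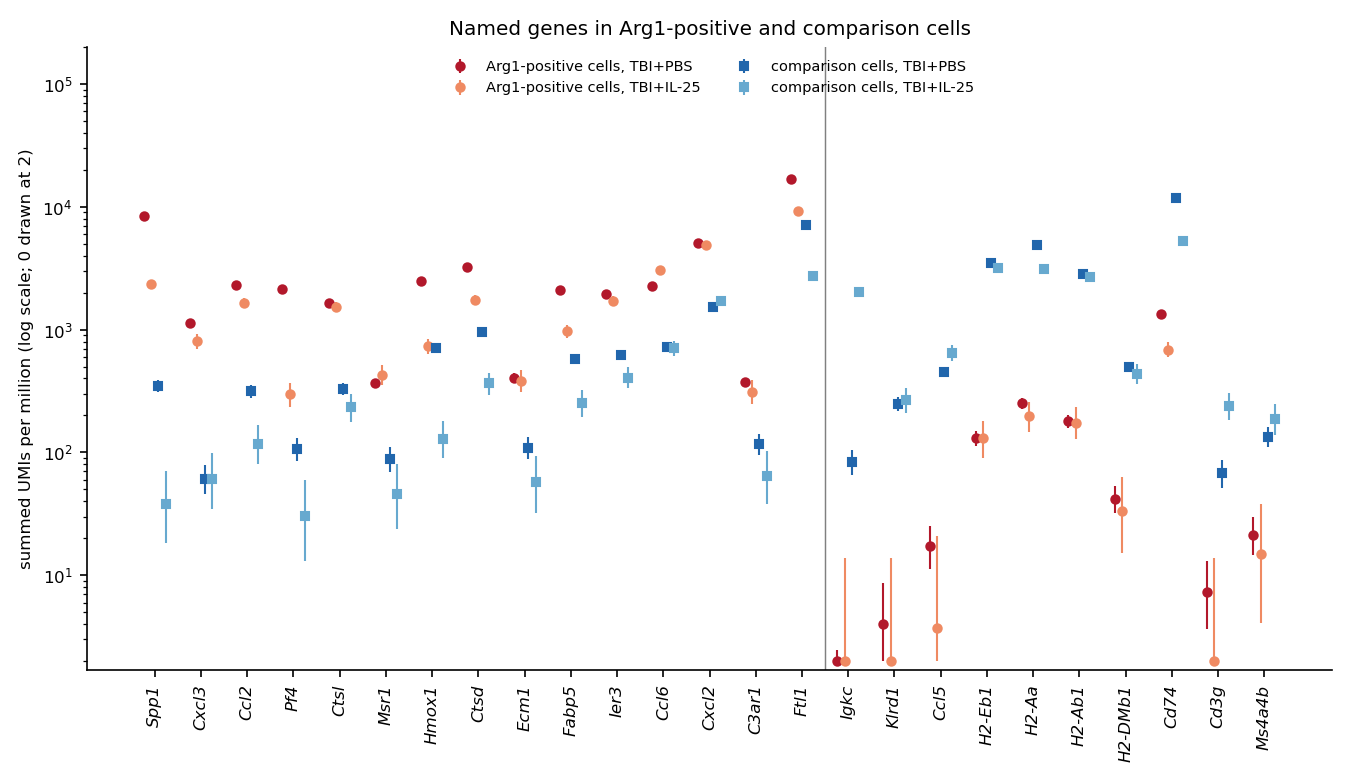
Summed UMIs per 1000000 (log scale) of the 15 higher and, right of the grey line, the 10 lower genes that ranked first by the interval bound nearest to 1, in Arg1-positive cells (circles) and comparison cells (squares) of both injured libraries; bars are exact Poisson 95% intervals, and a level of 0 is drawn at 2. Within each library every circle left of the line lies above the square of the same library, and every circle right of it lies below.

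Spp1, which encodes the secreted matrix protein osteopontin, ranked first among the higher genes. Its level was 8452 CPM in Arg1-positive and 349 CPM in comparison cells of TBI+PBS, a ratio of 24.3 (21.7 to 27.2). In TBI+IL-25 it was 2342 and 38.1 CPM, a ratio of 61.5 (33.2 to 129), and without the marked cells 13.7 and 31.6. Single cells ranged from 0 to 78668 CPM in TBI+PBS with a median of 3428 and from 0 to 13005 CPM in TBI+IL-25 with a median of 408. One cell supplied 36.1% of the 629 Spp1 UMIs in TBI+IL-25, against 8.14% of 12724 in TBI+PBS. The comparison cells of TBI+IL-25 held 10 Spp1 UMIs in 4 cells, 50% of them in 1 cell. A UMI was present in 86.1% and 64.1% of Arg1-positive cells, in 41.8% and 7.02% of comparison cells and in 14.6% and 2.12% of astrocyte-gated cells. With every cell thinned to 2000 UMIs these shares were 76.6% and 52.6%, 21.1% and 3.85%, and 6.73% and 1.597%.

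Chemokines, the secreted ligands that draw in leukocytes, were the list with the most higher members. Of 17 listed, 12 could be measured in both libraries, 7 were higher and 1 lower. The median log2 ratio of the 12 was 1.69 in TBI+PBS against 1.36 in TBI+IL-25, beside 0.02 and 0.05 over all 1534 genes. With the marked cells left out 10 were measured and 5 of the 7 were higher, while Ccl7 and Ccl9 no longer were.

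Cxcl3, a neutrophil attractant, stood at 1125 against 61.1 CPM in TBI+PBS, a ratio of 18.4 (14.1 to 24.6), and at 804 against 60.9 CPM in TBI+IL-25, a ratio of 13.2 (7.94 to 23.5). Without the marked cells the TBI+IL-25 ratio was 22.8. The comparison cells of TBI+IL-25 held 16 Cxcl3 UMIs in 5 cells, 50% of them in 1 cell. A Cxcl3 UMI was present in 51.1% and 33.3% of Arg1-positive cells, beside 0.602% and 0.0490% of astrocyte-gated cells, and 1 cell of TBI+IL-25 supplied 40.7% of that library's Cxcl3 UMIs. The related Cxcl2 had ratios of 3.32 (3.14 to 3.52) and 2.89 (2.59 to 3.22), with 2.01 in TBI+PBS without the marked cells.

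Ccl2, the ligand of Ccr2, reached 2298 against 315 CPM in TBI+PBS and 1645 against 118 CPM in TBI+IL-25. The ratios were 7.31 (6.47 to 8.29) and 13.9 (9.68 to 20.8), and without the marked cells 4.17 and 8.83. Ccl7, another Ccr2 ligand, had ratios of 6.54 and 2.70, Ccl6 3.11 and 4.31, and Ccl9 2.71 and 2.45. Without the marked cells Ccl7 was at 3.83 and 1.41, Ccl6 in TBI+PBS at 2.04 and Ccl9 at 1.90 and 1.54.

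Pf4, the heparin-binding platelet factor 4, was at 2138 against 106 CPM in TBI+PBS and 298 against 30.5 CPM in TBI+IL-25. Its ratios of 20.1 (16.4 to 24.9) and 9.78 (4.73 to 23.4) became 9.78 and 5.80 without the marked cells. One comparison cell held 50% of 94 Pf4 UMIs in TBI+PBS and 1 held 62.5% of 8 in TBI+IL-25. Ccl5, which T and natural killer cells make, was the lower member, with 26 UMIs in 1 Arg1-positive cell of TBI+PBS against 399 in comparison cells, and 1 UMI against 169 in TBI+IL-25. Its 26 UMIs were in a cell that was left out with the marked cells.

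**Figure D3:**
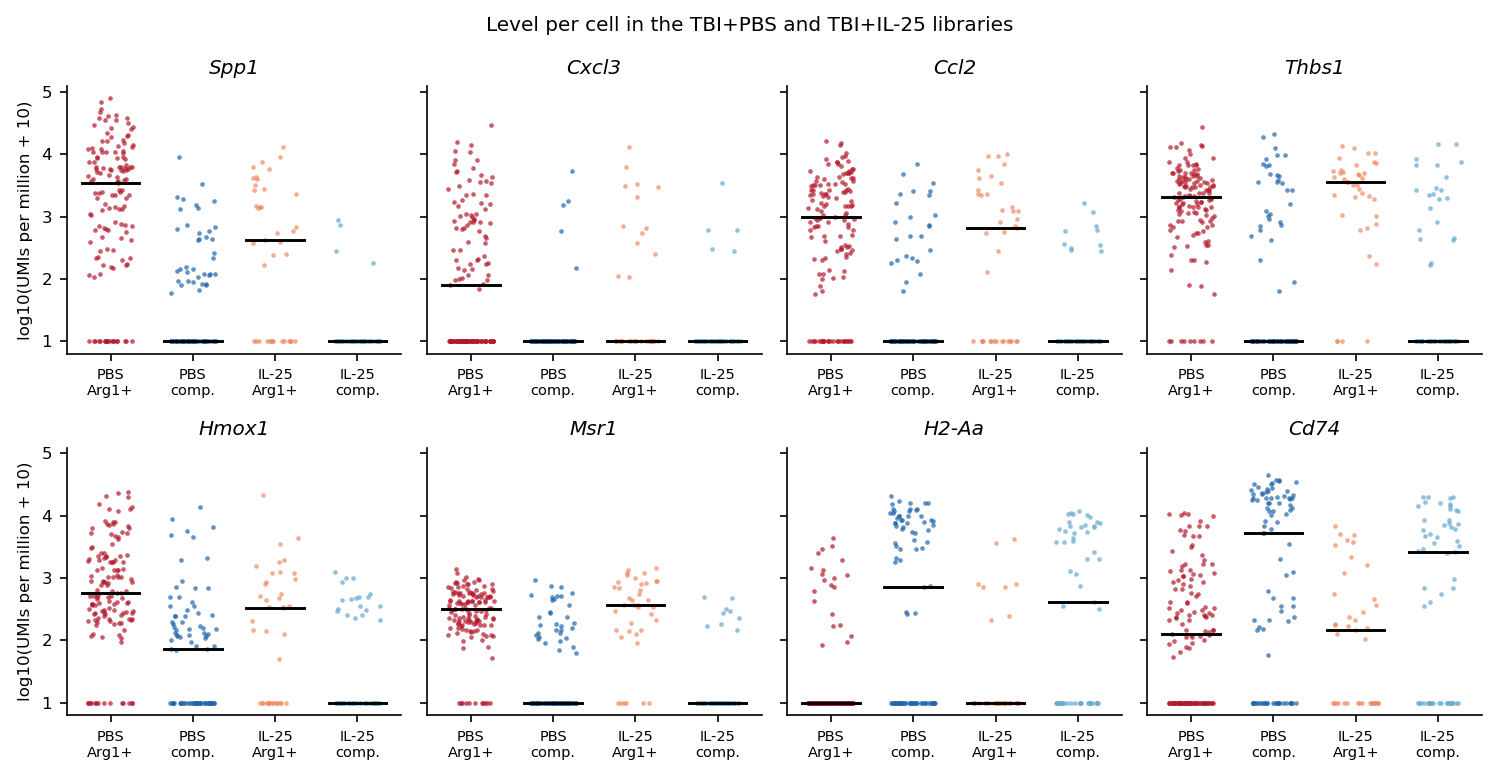
Level per cell of 8 genes, as log10 of UMIs per 1000000 plus 10, 1 point per cell, in Arg1-positive (Arg1+) and comparison (comp.) cells of both injured libraries; black lines are medians. The Spp1, Ccl2, Thbs1 and Msr1 medians are above 0 in the Arg1-positive cells of both libraries and at 0 in the comparison cells, while the H2-Aa medians show the opposite order.

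Thbs1 and Clec4n were proposed as markers of these cells together with Arg1. Thbs1 encodes thrombospondin-1, a matricellular protein, and stood at 2821 against 1330 CPM in TBI+PBS and 3656 against 1474 CPM in TBI+IL-25. The ratios were 2.12 (1.99 to 2.27) and 2.48 (2.20 to 2.80), with 1.44 in TBI+PBS without the marked cells. A Thbs1 UMI was present in 93.4% and 89.7% of Arg1-positive cells and in 35.2% and 38.6% of comparison cells, beside 2.06% and 0.7997% of astrocyte-gated cells. Thinned to 2000 UMIs, the first 4 of these shares were 84.7%, 89.5%, 28.9% and 40.4%. Clec4n, which encodes the fungal lectin receptor Dectin-2, stood at 872 against 238 CPM and 324 against 95.2 CPM. Its ratios were 3.67 (3.17 to 4.26) and 3.40 (2.16 to 5.54), and 1.99 and 1.87 without the marked cells. In the comparison cells both genes were present in a minority of cells, so neither was limited to the Arg1-positive gate.

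Among 14 lectin and pattern receptors 9 were measured, and 4 were higher: Clec4n, Clec4d, Msr1 and Cd14. The median log2 ratio was 0.74 in TBI+PBS against 1.66 in TBI+IL-25. Msr1, a scavenger receptor for modified lipoproteins, had 366 against 88.3 CPM and 428 against 45.7 CPM, ratios of 4.15 (3.27 to 5.33) and 9.37 (5.16 to 18.7). It was present in 92.0% and 84.6% of Arg1-positive cells, beside 0.833% and 0.849% of astrocyte-gated cells. Cd14, the co-receptor for lipopolysaccharide, was at 1379 and 1362 CPM in the Arg1-positive cells, with ratios of 2.31 (2.10 to 2.55) and 3.25 (2.62 to 4.06). Clec4e, the receptor Mincle, had ratios of 1.36 and 2.35 and Tlr2 1.45 and 3.06, below the 2-fold limit in TBI+PBS. Without the marked cells Tlr2 was at 0.916 and 1.69. Of the 4 higher genes Msr1 alone stayed higher then, with Clec4d at 1.491 and Cd14 at 1.77 in TBI+PBS, and Clec5a became higher.

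Of 15 genes of coagulation, wound matrix and fibrinolysis 10 were measured and 5 were higher, with median log2 ratios of 1.07 and 1.27. These were Spp1, Thbs1, Fn1, Ecm1 and Sdc4. Fn1, which encodes fibronectin, was at 1975 against 781 CPM in TBI+PBS and 2070 against 206 CPM in TBI+IL-25, ratios of 2.53 (2.33 to 2.75) and 10.1 (7.60 to 13.6). Ecm1, an extracellular matrix protein, had ratios of 3.75 (3.02 to 4.70) and 6.71 (3.89 to 12.4). Tgfbi, a collagen-binding matrix protein, was at 2302 and 1612 CPM with ratios of 1.53 and 2.34 (1.47 in TBI+IL-25 without the marked cells), and Tgm2, a cross-linking transglutaminase, had 1.03 and 2.31. Spp1, Fn1 and Ecm1 stayed higher without the marked cells, and Thbs1 and Sdc4 did not, the latter at 1.98 in TBI+PBS. F7, which encodes coagulation factor VII, missed the count minimum in TBI+IL-25, with 90 against 7 UMIs in TBI+PBS and 17 against 4 in TBI+IL-25.

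Proteases and their inhibitors set how matrix and engulfed proteins are broken down. Of 13 matrix proteases and inhibitors 4 were measured and 3 were higher: Ctsl, Ctsd and Adam8. Ctsl, the protease cathepsin L, was at 1657 against 328 CPM and 1530 against 232 CPM, ratios of 5.05 (4.47 to 5.72) and 6.59 (5.02 to 8.77). Ctsd, cathepsin D, had ratios of 3.35 (3.12 to 3.61) and 4.77 (3.82 to 6.00). These cathepsins were higher again without the marked cells, and Adam8, a membrane metalloprotease, was not, with 1.605 in TBI+PBS. Ctsb, cathepsin B, was the remaining member, with 2.91 and 1.98, just under the limit in TBI+IL-25.

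Of 14 lipid-handling genes 7 were measured and 5 were higher, with median log2 ratios of 1.43 and 1.58. Fabp5, a fatty acid binding protein, was at 2116 against 575 CPM and 972 against 251 CPM, ratios of 3.68 (3.35 to 4.05) and 3.87 (2.94 to 5.15). A Fabp5 UMI was present in 62.0% of Arg1-positive and 44.0% of comparison cells of TBI+PBS. In TBI+IL-25 these shares were 43.6% and 42.1%, and astrocyte-gated cells had 84.2% and 70.1%. One cell supplied 32.6% of the Fabp5 UMIs of Arg1-positive cells of TBI+IL-25, and 1 cell 47.4% of those of comparison cells of TBI+PBS. The lipid droplet coat gene Plin2 had ratios of 2.70 and 3.10, the droplet-associated lipase inhibitor Hilpda 2.59 and 9.22, the cholesterol exporter Abca1 3.32 and 2.98, and the lipid receptor Trem2 2.75 and 2.79. Without the marked cells Plin2 in TBI+PBS was at 1.54 and Hilpda at 1.31, and 3 of the 5 stayed higher. Apoe, which carries lipids between cells, was not among them, with 5097 and 3719 CPM and ratios of 1.93 (1.84 to 2.02) and 0.962 (0.881 to 1.05).

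Among 14 genes of disease-associated and repair phagocytes, 4 of the 9 measured were higher: Spp1, Trem2, Cd9 and Fabp5. Of 9 measured without the marked cells 3 were, and Cd9, a tetraspanin, was at 1.615 in TBI+PBS. The median log2 ratios were 1.17 and 1.31. Gpnmb, a lysosomal glycoprotein of the same list, was measured in TBI+PBS alone, with 164 against 30 UMIs and a ratio of 3.21 (2.17 to 4.91, and 1.88 without the marked cells), and held 5 against 0 UMIs in TBI+IL-25. Igf1, a growth factor of the list, held 4 UMIs in TBI+PBS, with 0 in TBI+IL-25.

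Iron and haem genes handle the iron of engulfed red blood cells. Of 14 listed 9 were measured and 3 were higher, Hmox1, Ftl1 and Slc7a11, with median log2 ratios of 0.90 and 1.52. Hmox1, which encodes haem oxygenase 1, stood at 2507 against 707 CPM in TBI+PBS and 733 against 130 CPM in TBI+IL-25. The ratios were 3.55 (3.26 to 3.86) and 5.66 (3.92 to 8.41), and 2.04 and 3.20 without the marked cells. Single cells ranged from 0 to 23871 CPM in TBI+PBS with a median of 572, and from 0 to 21076 CPM in TBI+IL-25 with a median of 316. Ftl1, the ferritin light chain, had ratios of 2.40 (2.33 to 2.47) and 3.36 (3.09 to 3.65), and was under the 2-fold limit in TBI+PBS, at 1.61, without the marked cells. Slc7a11, the cystine importer, had 2.28 and 3.57, and 1.26 in TBI+PBS without the marked cells, where Hmox1 alone of the list was higher.

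**Figure D4:**
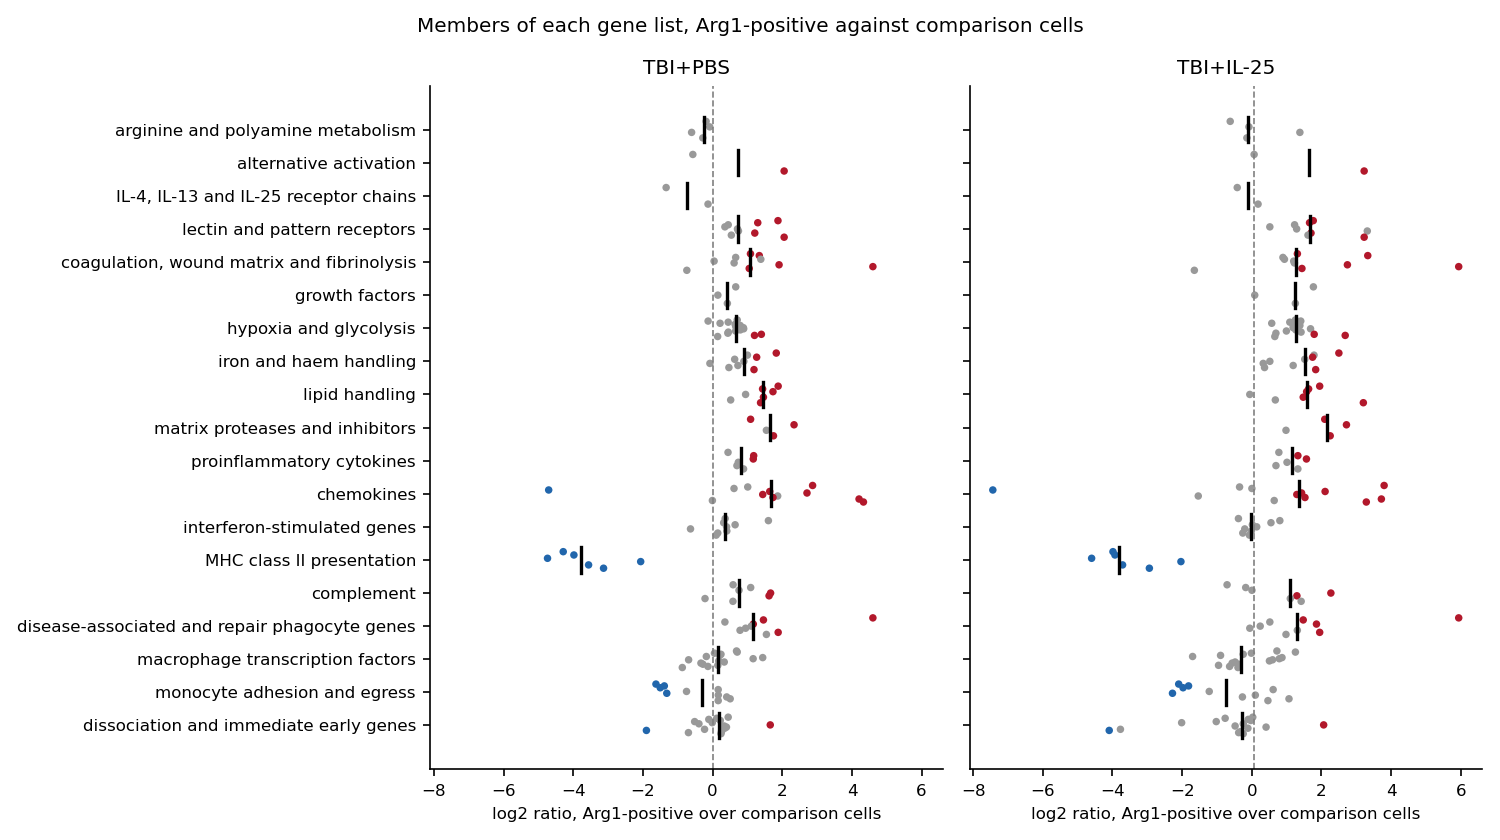
Log2 ratio of the level in Arg1-positive over comparison cells for each measured member of 19 gene lists, TBI+PBS left and TBI+IL-25 right; red points were higher and blue points lower in both libraries, grey points neither, black bars are list medians and the dashed line is the median of all 1534 genes. The MHC class II members all lie on the left, with medians of -3.77 and -3.82, and most points of the lipid, protease and chemokine lists lie on the right.

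Hypoxia-induced genes include most enzymes of glycolysis. Of 24 hypoxia and glycolysis genes 16 were measured and 2 were higher in both libraries, Bnip3 and Ero1a, with median log2 ratios of 0.66 and 1.26. In the cells left without the marked ones 12 were measured and none was higher, since Bnip3 and Ero1a missed the count minimum, at TBI+PBS ratios of 1.699 and 1.989. In TBI+PBS alone 3 of 22 measured were higher and in TBI+IL-25 alone 12 of 16, beside the 3.76% and 9.22% of all genes given above. Bnip3, a mitophagy receptor, had 128 and 145 CPM in Arg1-positive cells and ratios of 2.64 (1.89 to 3.76) and 3.47 (1.74 to 7.50). Ero1a, an oxidase of the endoplasmic reticulum, had 93.7 and 171 CPM and ratios of 2.30 (1.59 to 3.42) and 6.42 (2.88 to 16.9). Pgam1, Ldha and Gapdh, enzymes of glycolysis, had TBI+PBS ratios of 1.85, 1.37 and 1.58 and TBI+IL-25 ratios of 3.22, 2.67 and 2.29.

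Arg1 acts among enzymes that make, use and transport arginine and polyamines. Of 18 genes of arginine and polyamine metabolism 4 were measured in both libraries and none was higher or lower, with median log2 ratios of -0.24 and -0.11. A list of 4 is too short to show fewer calls than the 3.46% and 2.41% of all genes. In TBI+PBS alone 2 of 13 measured were higher and in TBI+IL-25 alone 1 of 4. Arg2, the mitochondrial arginase, held 74 UMIs in 44 of 137 Arg1-positive cells of TBI+PBS and 13 UMIs in 9 of 39 of TBI+IL-25, at 49.2 and 48.4 CPM. Nos2, the inducible nitric oxide synthase that competes for arginine, held 9 and 7 UMIs, in 3 cells each. Sat1, which acetylates polyamines, had ratios of 0.877 (0.793 to 0.972) and 0.652 (0.520 to 0.815). Ass1, which rebuilds arginine from citrulline, had a ratio of 0.658 (0.536 to 0.807) in TBI+PBS and 2.61 (1.55 to 4.53) in TBI+IL-25.

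Other genes of alternative activation were sparse. Of 16 listed, Msr1 and Chil3 could be measured and Msr1 alone was higher. Chil3, a chitinase-like protein, was present in 49.6% and 41.0% of Arg1-positive cells (27.0% and 31.6% when thinned to 2000 UMIs), beside 0.116% and 0% of astrocyte-gated cells, with ratios of 0.674 and 1.05 and, without the marked cells, 1.09 in TBI+PBS. Mrc1, the mannose receptor, held 123 UMIs in 28 of 137 cells of TBI+PBS and 7 UMIs in 3 of 39 of TBI+IL-25, with a UMI in 0.255% and 0.0979% of astrocyte-gated cells. Retnla held 0 UMIs in either library, where 3 UMIs would be 1.99 CPM in TBI+PBS and 11.2 CPM in TBI+IL-25.

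Receptor chains for the type 2 cytokines were present, and the IL-25 receptor chain was not detectable at this depth. Il17rb, the chain specific to IL-25, held 0 UMIs in both libraries, and Il17ra, the shared chain, held 139 UMIs in 71 of 137 cells and 17 UMIs in 12 of 39, beside 13.2% and 11.3% of astrocyte-gated cells. Il4ra, the interleukin-4 receptor chain shared with interleukin-13, held 298 UMIs in 104 of 137 cells and 25 UMIs in 15 of 39, at 198 and 93.1 CPM, beside a UMI in 1.99% and 1.76% of astrocyte-gated cells. Its ratio to the comparison cells was 2.08 (1.63 to 2.69) in TBI+PBS, and TBI+IL-25 missed the count minimum. Il13 and Il5, cytokines of type 2 innate lymphoid cells, were at 0 in the Arg1-positive cells of both libraries.

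Of 12 proinflammatory cytokine genes 6 were measured and 2 were higher, with median log2 ratios of 0.81 and 1.17. Ptgs2, the inducible cyclooxygenase, had 371 and 588 CPM in Arg1-positive cells, with ratios of 2.24 (1.87 to 2.71) and 2.97 (2.16 to 4.15). Tnf had ratios of 2.26 (1.54 to 3.40) and 2.51 (1.38 to 4.78), and 1.27 in TBI+PBS without the marked cells. Neither stayed higher without them, with Ptgs2 at 1.989 in TBI+PBS. Il1b was at 1901 and 2267 CPM with ratios of 1.36 and 1.72. Il6 held 9 and 1 UMIs.

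Of 13 growth factor genes 3 were measured in both libraries and 0 were higher in both, beside 3.46% of all genes. In TBI+PBS alone 3 of 7 measured were higher and in TBI+IL-25 alone 2 of 3. Vegfa, which acts on vessels, had ratios of 1.58 (1.33 to 1.89) and 3.41 (2.44 to 4.86), with 0.960 in TBI+PBS without the marked cells. Among 10 complement genes 2 of 7 measured were higher, the anaphylatoxin receptors C3ar1, with 3.17 (2.57 to 3.94) and 4.83 (2.85 to 8.68), and C5ar1, with 3.07 (2.64 to 3.597) and 2.46 (1.66 to 3.701). Without the marked cells C3ar1 in TBI+IL-25 was at 3.01. The ratios of C1qa, C1qb and C1qc, the chains of the first complement component, lay between 1.502 and 2.13 in TBI+PBS and between 0.612 and 1.00 in TBI+IL-25, and between 0.390 and 0.624 there without the marked cells. None of 9 measured interferon-stimulated genes and none of 16 measured transcription factors passed in both libraries. Over all genes 3.46% were higher and 2.41% lower, and lists of this length cannot show fewer calls than that. In TBI+PBS alone 3 of 18 interferon-stimulated genes and 2 of 18 transcription factors were higher. In TBI+IL-25 alone 0 of 9 and 1 of 16 were higher, and 1 transcription factor was lower. Klf2, a transcription factor of quiescent circulating cells, had ratios of 0.882 and 0.308.

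Among 16 dissociation and immediate early genes Ier3 was higher, with ratios of 3.15 (2.87 to 3.45) and 4.18 (3.38 to 5.21), and the heat shock gene Hspa1b was lower, with 0.268 and 0.0587. Fos and Jun, which respond to tissue digestion, had ratios of 1.36 and 0.926 in TBI+PBS and 1.02 and 0.933 in TBI+IL-25.

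MHC class II genes differed in the other direction. Of 7 listed, 6 were measured and all 6 were lower in both libraries, with median log2 ratios of -3.77 in TBI+PBS against -3.82 in TBI+IL-25. H2-Aa, an alpha chain, was at 250 against 4901 CPM in TBI+PBS, a ratio of 0.0511 (0.0459 to 0.0568), and at 197 against 3123 CPM in TBI+IL-25, a ratio of 0.0632 (0.0469 to 0.0835). It was detected in 15.3% and 20.5% of Arg1-positive cells, in 53.8% and 54.4% of comparison cells and in 1.02% and 0.163% of astrocyte-gated cells. Thinned to 2000 UMIs, the first 4 of these shares were 12.4%, 18.4%, 52.2% and 48.1%. H2-Eb1, a beta chain, had ratios of 0.0374 (0.0322 to 0.0432) and 0.0413 (0.0286 to 0.0579).

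Cd74, the invariant chain, was at 1340 against 11753 CPM and 689 against 5282 CPM, ratios of 0.114 (0.109 to 0.1196) and 0.130 (0.111 to 0.152). H2-DMb1, a chain of the peptide-loading complex, had ratios of 0.0846 and 0.0765, and its partner H2-DMa 0.239 and 0.244. Ciita, the transactivator of the class II genes, held 3 against 83 UMIs in TBI+PBS, a ratio of 0.0212 (0.00429 to 0.0642), and 0 against 12 in TBI+IL-25. Without the cells with lymphocyte, neutrophil or dendritic cell markers the same 6 genes were lower again, with H2-Aa at 0.0341 and 0.0517 and Cd74 at 0.102 and 0.111. H2-Eb1 was then at 0.0187 in TBI+PBS and H2-DMb1 at 0.0509 in TBI+IL-25.

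The promoters of the class II genes are shown because these genes moved together. Ciita acts through a complex that includes the CCAAT-box factor NF-Y. Each line gives the 150 bases before the start site from RefSeq on GRCm38.p6, 5′ to 3′ on the gene's strand, with CCAAT or its reverse complement ATTGG in capitals. The windows are chr17:34305717-34305866 (plus strand) for H2-Eb1, chr17:34287824-34287973 (minus strand) for H2-Aa and chr17:34153041-34153190 (plus strand) for H2-DMb1.
H2-Eb1: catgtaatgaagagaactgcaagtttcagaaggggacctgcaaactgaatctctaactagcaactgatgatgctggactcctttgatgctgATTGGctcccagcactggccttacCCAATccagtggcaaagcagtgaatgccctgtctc
H2-Aa: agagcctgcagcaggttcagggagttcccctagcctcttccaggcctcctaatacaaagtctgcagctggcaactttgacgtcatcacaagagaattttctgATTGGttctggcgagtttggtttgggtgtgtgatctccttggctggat
H2-DMb1: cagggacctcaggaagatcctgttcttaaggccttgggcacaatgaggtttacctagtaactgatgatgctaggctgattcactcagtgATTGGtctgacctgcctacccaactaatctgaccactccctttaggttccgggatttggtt
The motif, searched on both strands over the 250 bases before the start, was in 4 of the 5 promoters of the 4 class II genes matched of 7 listed, and in 33.85% of all 32851 promoters. A match describes the letters in the window and shows no binding.

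The same was done for ACGTG, the core of the hypoxia response element, since Bnip3 and Ero1a were the members of the hypoxia list that were higher in both libraries, though not without the marked cells, where they missed the count minimum. It occurred in 14 of 30 promoters of 22 matched genes and in 16.57% of all promoters. The windows, with ACGTG or its reverse complement CACGT in capitals, are chr7:138909507-138909656 for Bnip3, where matches on both strands overlap, and chr14:45318573-45318722 for Ero1a, both on the minus strand.
Bnip3: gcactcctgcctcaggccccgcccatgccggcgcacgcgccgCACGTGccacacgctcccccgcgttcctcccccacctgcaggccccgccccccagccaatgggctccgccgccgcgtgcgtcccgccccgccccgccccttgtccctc
Ero1a: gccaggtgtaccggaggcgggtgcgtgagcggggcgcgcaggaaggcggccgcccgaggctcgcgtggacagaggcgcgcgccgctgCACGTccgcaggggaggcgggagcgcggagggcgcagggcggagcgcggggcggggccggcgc

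Lymphocyte genes were also among the lower genes that ranked first. Igkc, an immunoglobulin chain, held 0 UMIs in the Arg1-positive cells of both libraries. With 3 UMIs in place of the 0 it was 42.0-fold lower in TBI+PBS and 179.7-fold lower in TBI+IL-25. These values rest on few comparison cells, since 1 cell held 94.6% of 74 Igkc UMIs in TBI+PBS and 1 cell 84.6% of 527 in TBI+IL-25. Klrd1, a natural killer cell receptor, held 6 and 0 UMIs, and Cd3g, a T cell receptor chain, 11 and 0. Ms4a4b, a lymphocyte membrane gene, had ratios of 0.159 and 0.0798 on 32 and 4 UMIs, which turned to 1.42 and 1.83 without the marked cells. The comparison cells held the lymphocyte markers whose levels are given above.

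Of 13 genes of monocyte adhesion and egress 10 were measured and 4 were lower: Selplg, the ligand for selectins, and the integrin chains Itgal, Itga4 and Itgb7. Their ratios lay between 0.324 and 0.401 in TBI+PBS and between 0.207 and 0.284 in TBI+IL-25. Without the marked cells Itga4 was at 0.824 and 0.418 and Selplg at 0.642 and 0.179, and none of the 6 members then measured was lower. The integrin chains missed the count minimum there.

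Levels of some genes along the Arg1 level, which also chose the cells, are given as a description only. The 137 TBI+PBS cells were ordered by Arg1 CPM and divided into groups of 46, 46 and 45 cells, and the 39 TBI+IL-25 cells into groups of 13. Arg1 went from 826 over 2274 to 5621 CPM in TBI+PBS and from 1215 over 3265 to 7221 CPM in TBI+IL-25, by construction. Cxcl3 went from 215 over 1172 to 2101 CPM and from 81.0 over 663 to 1530 CPM. Clec4n stood at 792, 770 and 1054 CPM and at 189, 267 and 492 CPM.

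H2-Aa ran the other way, at 357, 343 and 46.4 CPM in TBI+PBS and 513, 79.1 and 74.9 CPM in TBI+IL-25. Those H2-Aa values rest on 377 UMIs in 21 cells of TBI+PBS and 53 UMIs in 8 cells of TBI+IL-25. A single cell held 24.1% and 43.4% of them. Cd74 stood at 1973, 1478 and 506 CPM and at 905, 574 and 642 CPM. Thbs1 went from 1305 over 3052 to 4304 CPM in TBI+PBS, but was level in TBI+IL-25, at 3645, 3789 and 3520 CPM. Spp1 had no steady order in TBI+PBS, with 10555, 6203 and 8163 CPM. The groups of 13 cells rest on few UMIs for some genes, such as 6, 67 and 143 for Cxcl3.

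Within the Arg1-positive cells the TBI+IL-25 library held less Spp1, Hmox1 and of several chemokines, and more Prdx5, Txn1 and Prtn3, than TBI+PBS. Of 4544 genes with at least 50 UMIs over both, 99 (2.18%) were at least 2-fold higher and 355 (7.81%) at least 2-fold lower in TBI+IL-25 with intervals clear of 1. In the comparison cells 92 (2.62%) of 3512 genes were higher and 275 (7.83%) lower. Depth also differed: the median Arg1-positive cell held 10108 UMIs and 2919 genes in TBI+PBS and 6809 UMIs and 2159 genes in TBI+IL-25. Treatment, library, depth, ribosomal RNA level and software version cannot be told apart here.

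Spp1 was at 8452 CPM in TBI+PBS and 2342 CPM in TBI+IL-25, a ratio of 0.277 (0.255 to 0.300), beside 0.109 (0.0519 to 0.204) in the comparison cells. Pf4 was at 2138 and 298 CPM, a ratio of 0.139 (0.110 to 0.174), with 0.286 in the comparison cells. Ccl7 was at 1701 and 298 CPM, a ratio of 0.175 (0.138 to 0.219), with 0.424 in the comparison cells. In all 3 genes the comparison cells lay on the same side, on few UMIs in TBI+IL-25. These were 10 for Spp1, 8 for Pf4 and 29 for Ccl7, with 50%, 62.5% and 82.8% of them in 1 cell.

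Cxcl10, the interferon-induced ligand of the receptor Cxcr3, is named in the title of the series. It was at 364 CPM in TBI+PBS (548 UMIs in 19 of 137 cells) and at 52.1 CPM in TBI+IL-25 (14 UMIs in 7 of 39 cells), a ratio of 0.143 (0.0778 to 0.242). A single cell supplied 39.4% of the TBI+PBS UMIs. The comparison cells had a ratio of 0.888 (0.506 to 1.49). A Cxcl10 UMI was present in 13.9% of the cells in TBI+PBS against 17.9% in TBI+IL-25, shares of few cells, beside 2.92% and 6.22% of astrocyte-gated cells. Thinned to 2000 UMIs these were 5.11% and 7.89%, beside 1.56% and 4.52%.

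Ppbp, another platelet chemokine, held 228 UMIs in 17 cells of TBI+PBS, 58.8% of them in 1 cell, and 0 in TBI+IL-25. With 3 UMIs in place of the 0 it was 13.6-fold lower. Flrt3, a membrane protein, held 70 UMIs in 31 cells against 0, and was 4.16-fold lower by the same replacement. Mgp, a matrix protein of fibroblasts and mural cells, held 109 UMIs against 0, of which 99.1% lay in 1 cell. The heat shock gene Hspa1a was at 163 and 22.3 CPM, a ratio of 0.137 (0.0499 to 0.303), while in the comparison cells it was 1.59 (1.21 to 2.09).

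Among the lists, calls in the chemokine, iron and lipid lists were all lower in TBI+IL-25. Of 14 chemokines measured 6 were lower and 0 higher, of 12 iron and haem genes 3 and 0, and of 12 lipid genes 4 and 0, with median log2 ratios of -0.92, -0.39 and -0.66 beside -0.12 over all genes. These counts stand beside the 7.81% of all genes that were lower. Marker lists of other cells were lower in the same comparison, with 4 of 5 microglia markers outside the rule, 5 of 9 astrocyte markers and 3 of 4 border-associated macrophage markers (Pf4 among them), while 1 of the last was higher. Their median log2 ratios were -1.40, -1.04 and -1.44, and their part in the other lists was not tested. Of 11 measured genes of repair phagocytes 5 were lower, with a median of -0.75. Hmox1 was at 0.293 (0.252 to 0.338) of its TBI+PBS level and Fabp5 at 0.459. Cxcl2, Cxcl3 and Ccl2 were nearer to 1, at 0.966, 0.715 and 0.716.

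Among the higher genes Prdx5, a peroxiredoxin, was at 1111 CPM in TBI+PBS and 2755 CPM in TBI+IL-25, a ratio of 2.48 (2.27 to 2.71), and present in every Arg1-positive cell of both libraries, beside 49.3% and 44.0% of astrocyte-gated cells. Txn1, thioredoxin, was at 818 and 2044 CPM, a ratio of 2.499 (2.26 to 2.77). In the comparison cells these ratios were 1.34 and 1.37. Prtn3, the granule protease proteinase 3, was at 16.6 and 142 CPM, on 25 and 38 UMIs, with 8.52 (5.01 to 14.7) against 0.739 (0.316 to 1.54) in the comparison cells. Hp, haptoglobin, was at 58.5 and 238 CPM, with 4.08 (2.91 to 5.69) against 1.05 (0.742 to 1.46).

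Lars2, Cks2, H1f4 and Clec12a were higher in both kinds of cells. Their ratios in Arg1-positive cells were 8.66, 6.02, 4.54 and 3.98 and in comparison cells 6.25, 4.65, 3.27 and 2.65. Lars2, a mitochondrial tRNA synthetase, was also present in 63.0% of astrocyte-gated cells of TBI+IL-25 against 13.03% of those of TBI+PBS. Its part in the result, like that of the ribosomal RNA given above, was not tested.

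**Figure D5:**
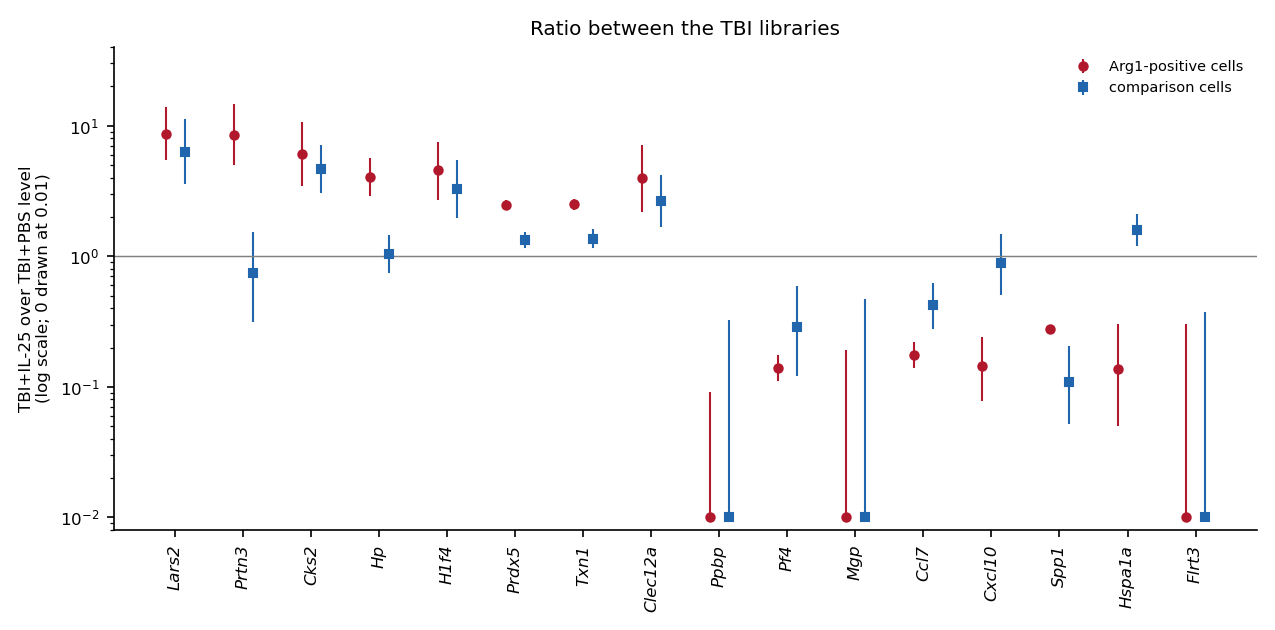
Ratio of the summed level in TBI+IL-25 over TBI+PBS (log scale) for the 8 higher and 8 lower named genes, in Arg1-positive cells (circles) and comparison cells (squares); bars are exact conditional binomial 95% intervals and a ratio of 0 is drawn at 0.01. In the comparison cells the intervals of Prtn3, Hp and Cxcl10 cross the line of 1 and Hspa1a lies above it, while the other genes lie on the same side in both.

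None of 6 measured MHC class II genes was higher or lower between the libraries in these cells, beside 2.18% and 7.81% of all genes. A list of 6 is too short to show fewer calls than that. H2-Aa was at 0.788, H2-Ab1 at 0.976 and H2-Eb1 at 1.00. Cd74 was at 0.514 (0.440 to 0.598), an interval under 1 that missed only the 2-fold limit. In the comparison cells Cd74 was lower, at 0.449. Thbs1 was at 1.30 (1.21 to 1.39) and Clec4n, which was lower, at 0.372 (0.296 to 0.462), and the comparison cells had 1.11 and 0.401.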

How the data were processed

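The deposited files hold raw UMI counts per gene and cell barcode for each library, which the authors made with Cell Ranger (per the file headers, version 7.2.0 in TBI+IL-25 and 7.1.0 in the other libraries). The submitters' processing notes name GRCm39, bcl2fastq 5.0.1 and Seurat 4.4.0, and steps beyond these are not given in the sources used here. Each matrix lists 55357 genes, and no column belonged to another sample (0 columns). UMIs were summed over the cells of a gate in each library and scaled to 1000000 (CPM). Levels have exact Poisson intervals, ratios exact conditional binomial intervals and shares Clopper-Pearson intervals, all at 95% and for counting error only. With 1 library per group no test between groups was made.

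A gene was measured from 50 UMIs over the cells compared, and was counted as higher or lower at 2-fold or 0.5-fold with an interval clear of 1. A count of 0 was replaced by 3 UMIs over the group (3 cells for the sham share) to give a fold, which is not an interval bound. Scrublet scores (scanpy 1.11.5) were computed and no cell was removed by them, since doublets were treated as an alternative. Calculations used Python 3.11.15, NumPy 2.4.6, SciPy 1.17.1 and pandas 2.3.3, figures used Matplotlib 3.10.9, and the counting of calls was tested on simulated data. Those data were Poisson counts without variation between cells and with changes larger than the 2-fold limit. They therefore checked the calculation, and not calls near that limit or on genes whose UMIs come from few cells.

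The named genes are the 15 higher and 10 lower genes, and the 8 each way between injured libraries, that ranked first by the interval bound nearest to 1, leaving out genes of the rule, predicted, mitochondrial, ribosomal protein and haemoglobin genes. Called members of each list and up to 4 more with the most UMIs were added. Other genes, most of them with few UMIs, were chosen after their values were seen. The cells, gene lists and markers were chosen with earlier results of these data known. Alternatives changed the gates, depth, scaling, count minimum and the cells left out.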

Additional observations from a re-analysis of the deposited data

Results flagged for a closer look

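Ccl12, a ligand of the monocyte receptor Ccr2, lay on opposite sides of 1 in the injured libraries. In TBI+PBS it was at 272 CPM in Arg1-positive and 74.7 CPM in comparison cells, a ratio of 3.647 (2.81 to 4.81). In TBI+IL-25 it was at 67.01 and 194 CPM, a ratio of 0.345 (0.190 to 0.601). Without cells with lymphocyte, neutrophil or dendritic cell markers the ratios were 2.62 and 0.221. One cell supplied 31.0% of the 410 UMIs of TBI+PBS, and the TBI+IL-25 value rests on 18 UMIs in 11 cells. The difference between the libraries was not tested.

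Cells outside the gate also held Arg1. In TBI+PBS 9 cells had at least 3 Arg1 UMIs and more than 5 UMIs of the microglia genes, against 1 cell in the sham library and 0 in TBI+IL-25.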

How the results depend on the processing

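No paired analysis was possible because each group is 1 library, and for the same reason no replicate could be left out. Leaving out cells with other brain, T or B cell markers reduced the denominator too and gave Arg1-positive shares of 2.607% (TBI+PBS) and 0.8372% (TBI+IL-25), a ratio of 0.3211. The counts of higher and lower genes between Arg1-positive and comparison cells (53 and 37) became 19 and 17 under that setting, 33 and 15 with cells thinned to 2000 UMIs, 83 and 92 at a count minimum of 20, 23 and 8 at a minimum of 200, 105 and 195 with no minimum, and 23 and 18 without cells of lymphocyte, neutrophil or dendritic cell markers. Other minimums change how many genes are measured. Between TBI+IL-25 and TBI+PBS the counts (99 and 355) became 55 and 230 without other brain, T or B cell markers. Thinned they were 31 and 65. At a minimum of 200 they were 22 and 90, at a minimum of 20 they were 185 and 482, and with none 299 and 482. Ms4a4b reversed to 1.577 in TBI+IL-25 without other brain, T or B cell markers, and to 1.422 (TBI+PBS) and 1.833 (TBI+IL-25) without the lymphocyte, neutrophil and dendritic cell markers. The cause was not tested. Over 66 ratios of named genes and 18 settings, 953 of 1131 values lay within the counting interval of the first ratio. Another 175 moved beyond it and 3 reversed, and 93 moved by more than 1.5 times. A count minimum cannot change a ratio, so the values under the other minimums lay within it by construction. The 953 are therefore no measure of how stable the ratios are. Median-of-ratios scaling moved the median log2 ratio of all genes from 0.02 and 0.05 to 0.13 and 0.14. Depth limits the 39 cells of TBI+IL-25 most, with 268633 UMIs in all against 1505374 in TBI+PBS.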

Other observations

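Arg1-positive cells with fewer than 5 UMIs of the monocyte genes numbered 21 of 137 in TBI+PBS and 6 of 39 in TBI+IL-25. In TBI+PBS they held Spp1 at 21934 CPM against 6631 CPM in the other Arg1-positive cells, Fabp5 at 7133 against 1439 CPM, Hmox1 at 5336 against 2125 CPM and Pf4 at 5179 against 1727 CPM. In the 6 cells of TBI+IL-25 Spp1 was at 1012 against 2513 CPM and Fabp5 at 359 against 1051 CPM, the opposite order, while Hmox1 was at 1827 against 593 CPM and Cxcl3 at 5156 against 244 CPM. Their median depth was lower, at 7897 against 10266 UMIs in TBI+PBS and 4536 against 6859 UMIs in TBI+IL-25, and the part of depth in these values was not tested. The split uses genes of the comparison gate, so these values are a description of few cells. Single cells among the 21 reached 78668 and 69404 CPM of Spp1.

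Several genes were held by few cells. Inhba, the activin A chain, held 83 UMIs in 14 Arg1-positive cells of TBI+PBS and 8 UMIs in 4 cells of TBI+IL-25, and 0 in the comparison cells of both. Ccl24, an eosinophil attractant, held 59 UMIs in 13 cells and 33 UMIs in 7 cells, against 1 and 2 UMIs in comparison cells. Mmp13, a collagenase, held 38 UMIs in 7 cells of TBI+PBS and 0 in TBI+IL-25. Areg, the growth factor amphiregulin, held 70 UMIs in 8 cells and 2 UMIs in 1 cell. Of the proliferation genes, Mki67 held 1 and 0 UMIs and Top2a 9 and 0.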
